A study of Mus musculus with 18 samples.

Results

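The 9 libraries of pregnant mice, out of 18 in the series, compare late with mid pregnancy. They were chosen by their labels: 3 libraries from gestation day 19 were set against 3 from day 10, paired by cell type, and 3 from day 16 served as the point between. DNA methylation was measured by multiplexed reduced representation bisulfite sequencing, in which genomic DNA is cut at CCGG by the enzyme MspI and bisulfite turns unmethylated cytosine into uracil. All mice were C57BL/6 females with no other genotype or treatment in the labels. The glands were digested and cells were purified as mammary epithelial stem cells, luminal progenitor cells or mature luminal cells, and each day gave 1 library of each (called stem, progenitor and mature below). The other 9 libraries, of virgin mice (week 3 and week 9) and retired breeders, were used to sort CpGs by level and as a reference range. They also entered an alternative fit with all 18 libraries, and promoters were placed on the CpGs listed in any of the 18. Whether the 3 libraries of a day share mice, and how many mice went into each, is not in the labels, so p-values measure the spread between these libraries, which may be technical. The 3 cell types served as the paired replicates of a day. SDs and tile tests between days thus use the spread between cell types, not between mice of 1 cell type. A shift in the mix of purified cells and a shift in methylation within a cell cannot be told apart.

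Mammalian DNA methylation sits mainly on the cytosine of CpG dinucleotides. CpG-dense promoters are mostly free of it, while most other CpGs carry it. During pregnancy progesterone and prolactin drive the growth of alveoli, and toward birth the luminal alveolar cells take on secretion of milk. In female cells CpG-dense promoters of many X-linked genes are methylated on the inactive X and free of methylation on the active X. Some promoters of imprinted genes are methylated on 1 parental copy. Promoters methylated in either way show middle levels in bulk DNA.

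Of 1485193 CpGs listed in any library, 825576 (55.6%) had 5 or more reads in all 9 pregnancy libraries, and these shared CpGs carry the results below unless stated. Reads per library, summed over CpGs, were 52625738 to 73762909 at day 10, 21066553 to 33860141 at day 16 and 29321108 to 56771977 at day 19. Median reads per listed CpG were 29 to 43, 11 to 18 and 19 to 36 in the same order. The deposited files also differ in layout: all day 10 libraries and the stem and mature libraries of day 16 have 4 columns, and the day 16 progenitor and all day 19 libraries have 6. Day and layout therefore cannot be told apart for day 19 against day 10.

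Promoters were placed on the files by the spacing of their CpGs, which located windows for 7639 genes with 3 or more shared CpGs. Some placements may be wrong, since before a check on neighbouring windows the same spacing read backwards was placed 487 times against 8480 for the true spacing. Sequences are from RefSeq (build GRCm38.p6); coordinates are where the windows fell on the mm9 positions of the files. The 250 bases before the start site are shown for 4 genes: the CpGs of 3 carry promoter differences described below, and Igf2r is the imprinted example, whose days overlapped. Capitals mark CpGs with 5 or more reads in all 9 libraries, and each sequence runs 5′ to 3′ along the strand of its gene. They are Gm31822, a predicted gene, at chr10:92106586-92106835 (plus strand), Map2k7, a kinase upstream of JNK, at chr8:4238490-4238739 (plus strand), Slc25a53, of the mitochondrial carrier family, at chrX:133572842-133573091 (minus strand), and Igf2r, the imprinted receptor that clears insulin-like growth factor, at chr17:12962573-12962822 (minus strand).
Gm31822: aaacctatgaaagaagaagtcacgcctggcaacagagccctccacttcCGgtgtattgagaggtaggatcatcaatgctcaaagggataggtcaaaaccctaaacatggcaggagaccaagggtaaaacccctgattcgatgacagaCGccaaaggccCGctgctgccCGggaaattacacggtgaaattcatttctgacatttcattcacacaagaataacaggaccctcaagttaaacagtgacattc
Map2k7: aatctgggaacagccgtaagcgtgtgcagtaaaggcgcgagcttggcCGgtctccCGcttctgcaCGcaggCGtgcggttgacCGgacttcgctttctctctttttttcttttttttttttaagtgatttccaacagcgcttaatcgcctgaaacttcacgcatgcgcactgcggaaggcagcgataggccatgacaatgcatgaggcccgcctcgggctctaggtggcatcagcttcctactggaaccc
Slc25a53: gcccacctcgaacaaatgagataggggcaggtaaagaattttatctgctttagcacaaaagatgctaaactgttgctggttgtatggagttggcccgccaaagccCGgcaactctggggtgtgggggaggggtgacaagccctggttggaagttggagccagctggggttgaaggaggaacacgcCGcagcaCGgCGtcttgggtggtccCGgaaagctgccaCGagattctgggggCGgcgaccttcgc
Igf2r: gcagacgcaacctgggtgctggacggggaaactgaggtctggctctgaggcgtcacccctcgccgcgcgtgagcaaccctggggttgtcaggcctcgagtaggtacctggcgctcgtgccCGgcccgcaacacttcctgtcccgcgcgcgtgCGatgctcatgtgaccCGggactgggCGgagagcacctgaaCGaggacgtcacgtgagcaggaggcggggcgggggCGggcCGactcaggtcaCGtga

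With each shared CpG weighted equally, the mean methylation level did not differ in the same direction in all 3 cell types between day 19 and day 10. At day 10 the mean over shared CpGs was 48.6% in stem, 49.4% in progenitor and 48.7% in mature cells. At day 16 it was 48.0, 49.3 and 49.1%, and at day 19 it was 47.7, 48.6 and 49.2%. Stem and progenitor libraries were lower at day 19 than at day 10, by -0.833 and -0.724 points, and the mature library was higher, by 0.552 points. The mean paired difference was -0.335 points (SD 0.770, n = 3). A two-sided exact permutation test of days within cell types gave p = 0.306, and its smallest possible p is 0.00926. It permutes the labels of all 3 days, so day 16 levels also enter the p for day 19 against day 10. Day 16 differed from day 10 by -0.0711 points (p = 0.852) and day 19 from day 16 by -0.264 points (p = 0.407) in the same exact test. Leaving out 1 cell type gave a difference between day 19 and day 10 of -0.0860 points without stem libraries (exact p = 0.889). It was -0.140 points without progenitor libraries (exact p = 0.722). Without the mature libraries, whose pair had the opposite sign, it was -0.779 points. The exact p was then 0.0556, the smallest the test can give on the 2 remaining cell types.

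CpGs were sorted by their mean level in the virgin and retired libraries, which took no part in the comparison. In the high class, over 80% methylated (349700 CpGs), day 10 libraries were at 91.9% in stem, 92.3% in progenitor and 92.1% in mature cells. Day 19 libraries were at 90.6, 90.8 and 92.0% in the same order. All 3 pairs were lower at day 19, the mature pair by only -0.0115 points, and the mean difference was -0.928 points (SD 0.804, n = 3; exact p = 0.0463, adjusted p = 0.222 over 8 classes). The middle class of 20 to 80% (135665 CpGs) held the widest spread between cell types. There the day 19 level was -1.87 points from day 10 in stem, -1.06 points in progenitor and 3.02 points in mature cells, and the mean difference was 0.0309 points (exact p = 0.972, adjusted p = 0.972). In the low class, under 20% (340211 CpGs), libraries lay between 1.37 and 1.83% on all days, and day 19 was higher by 0.129 points (SD 0.108, n = 3; exact p = 0.0556, adjusted p = 0.222).

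The X chromosome (36895 CpGs) was at 76.1, 76.4 and 75.9% at day 10 and 74.9, 75.2 and 76.0% at day 19 in stem, progenitor and mature cells. Its mean difference was -0.722 points (exact p = 0.0926, adjusted p = 0.247), against -0.317 points on the autosomes (exact p = 0.315, adjusted p = 0.420). In tiles of 1000 bp with 20 or more shared CpGs, a measure of CpG density, all 3 pairs were lower at day 19, by -0.119 to -0.181 points (mean -0.159, SD 0.0347, n = 3; exact p = 0.185, adjusted p = 0.296). No class passed the threshold of 0.05 after adjustment.

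**Figure D1:**
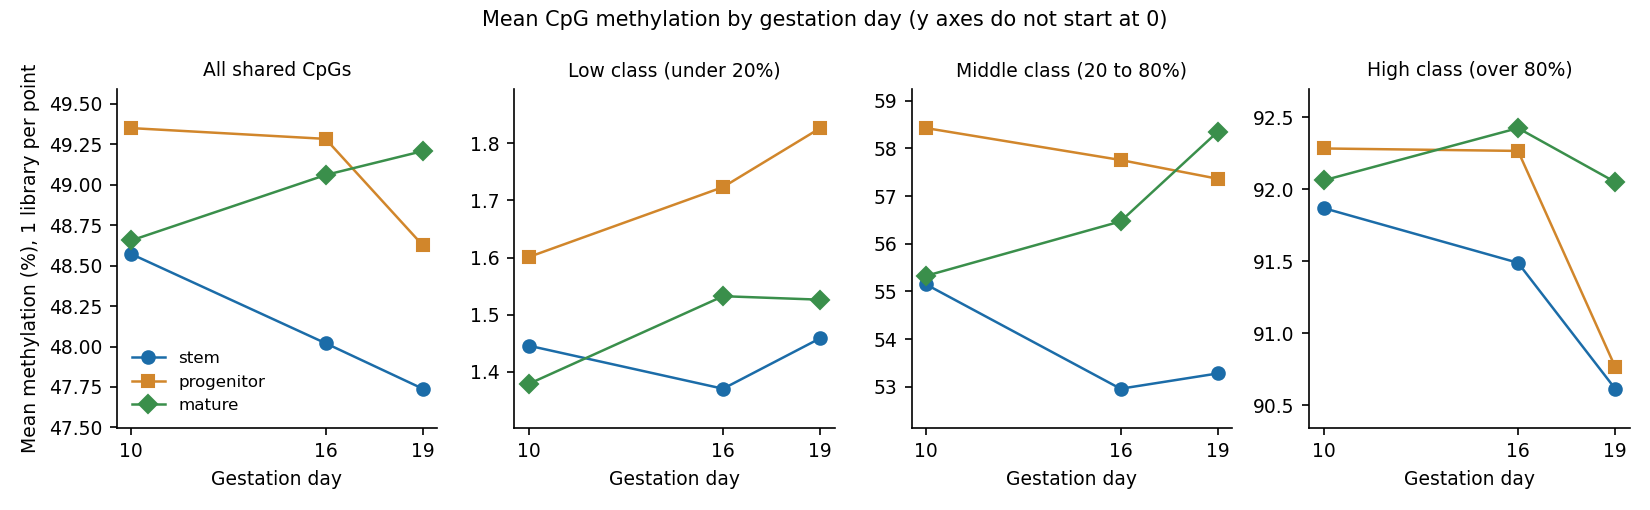
Mean methylation in percent (y axis, which does not start at 0) against gestation day (x axis) for all shared CpGs and the low, middle and high class, with 1 point per library and 1 line per cell type. In the high class the stem and progenitor libraries end near 90.6 and 90.8% at day 19 while the mature library stays at 92.0%, and in the middle class the mature library ends highest, at 58.3%.

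The mean depended on how CpGs were weighted and which were counted. With reads pooled over the same shared CpGs, the level was 49.8, 47.5 and 48.2% at day 10, 49.8, 49.6 and 52.2% at day 16 and 44.4, 44.7 and 44.8% at day 19 in stem, progenitor and mature cells. All 3 day 19 libraries were then the lowest, the mature one included. Day 19 was lower than day 10 by -3.86 points (SD 1.39, n = 3, exact permutation p = 0.157). Day 16 levels, with a mean of 50.6% against 48.5% at day 10, also enter this p. Day 19 was lower than day 16 by -5.94 points (SD 1.33, n = 3, exact permutation p = 0.0185). With reads pooled within the classes, day 19 minus day 10 was -1.07 points (high), 0.106 points (middle) and -0.135 points (low). Over every CpG with 5 or more reads in a library, whether shared or not, the levels were 48.6, 48.3 and 47.8% at day 10, 48.9, 49.4 and 50.8% at day 16 and 45.0, 45.6 and 46.5% at day 19 in stem, progenitor and mature cells. All 3 day 19 libraries were below the other 6. Day 19 was lower than day 16 by -4.01 points (SD 0.298, n = 3), with an exact permutation p = 0.00926, the smallest possible. It was lower than day 10 by -2.58 points (exact p = 0.157, which day 16 levels also enter). Within the classes, day 16 levels were 91.2, 92.2 and 92.3% (high), 53.4, 58.2 and 57.0% (middle) and 1.46, 1.72 and 1.64% (low). The day 19 levels were 90.6, 90.8 and 92.0%, 53.1, 57.0 and 58.2%, and 1.30, 1.59 and 1.40% in the same order. The part of the mix of counted CpGs in the drop was not tested. The day 19 files list fewer CpGs, 1328066 to 1360693 against 1413795 to 1473410 in the other 6. With no minimum of reads, 71186 CpGs were listed in all day 10 and day 16 libraries and in no day 19 library. The same kind of absence held at 2900 CpGs for day 16 and at 8 for day 10. Among 900260 CpGs with 10 or more reads in every day 10 library and 5 or more in every day 16 library, 7131 (0.792%) were listed in no day 19 library. These had a mean level of 68.3% and median depth of 17 reads at day 10, against 49.7% and 47 reads for the CpGs listed in all 3 day 19 libraries. At least 99.004% of them were listed in each retired library, whose files also have 6 columns. Whether file layout has a part in the missing CpGs was not tested.

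Tiles of 1000 bp with 3 or more shared CpGs numbered 86781, with a median of 85 to 293 reads per tile in a library. Each tile was tested with a quasi-binomial regression on its reads, with cell type as a block and Benjamini-Hochberg adjustment over all tiles, and called where the adjusted p was below 0.05 with a mean paired difference of at least 10 percentage points. No tile was called between day 19 and day 10 (0% of those tested), and the smallest adjusted p was 0.0896. At an unadjusted p under 0.05 there were 7334 tiles (8.45%), of which 3253 were higher and 4081 lower at day 19. Limma, run on the log2 of methylated over unmethylated reads, also called 0, with 6287 tiles at an unadjusted p under 0.05. Day 16 against day 10 gave 0 calls (0%; 5716 tiles, 6.59%, at an unadjusted p under 0.05). Day 19 against day 16 gave 4 calls (0.00461%), 2 higher and 2 lower at day 19, with 9747 tiles (11.2%) at an unadjusted p under 0.05. A count of 0 does not show that tiles were alike. On simulated counts of this depth and number of libraries the test missed nearly all changes of 20 points. For day 19 against day 10 it found 3% of changes of 20 points and 53% of changes of 40 points. For day 19 against day 16 it found 0 and 17%, with 1 false call. Changes were simulated only at tiles of intermediate level. The linear change over days differed between cell types at 0 tiles (0%), where the smallest adjusted p was 0.934 and 3573 tiles (4.12%) had an unadjusted p under 0.05. This test fits a straight line over gestation day for each cell type, so departures from the line, as at day 16, count as spread.

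Libraries of day 19 lay wholly below those of day 10 at 6060 tiles (6.98%) and wholly above at 3539 tiles (4.08%). For day 16 against day 10, which uses the same day 10 libraries, the figures were 4221 (4.86%) and 4068 (4.69%). For day 19 against day 16 they were 6932 (7.99%) and 5177 (5.97%). Lower tiles outnumbered higher ones in every class, most in the high class, where day 19 lay below at 7.91% and above at 3.56% of 41529 tiles, with a median difference of -4.28 points where lower. For the same tiles day 16 lay below day 10 at 5.15% and above at 5.81%. In the low class the lower and higher shares at day 19 were 5.87 and 4.04%, and in the middle class 6.45 and 5.20%. At the tiles where day 19 and day 10 did not overlap, the place of the day 16 mean was described with no test. The day 16 mean was nearer to day 10 in 72.2% of the tiles higher and 70.8% of those lower at day 19. It lay between day 10 and day 19 at only 44.4% and 45.8% of these tiles, in the same order. At most of these tiles day 16 was thus not a step on the way from day 10 to day 19.

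Most large differences within a cell type were not shared by the 3 cell types. Past 20 points from day 10 to day 19, stem cells had 857 tiles higher and 1511 lower, progenitor cells 987 higher and 1500 lower, and mature cells 1907 higher and 698 lower. The mature pair thus leaned the opposite way from the other 2 pairs. Higher and lower tiles together were 2.73% of the 86781 tiles in stem, 2.87% in progenitor and 3.00% in mature cells. In all 3 pairs, 30 tiles were more than 20 points higher and 21 more than 20 points lower, together 0.0588% of tiles. From day 10 to day 16 the mature pair had 1095 higher and 786 lower tiles (2.17% together), and from day 16 to day 19 it had 2703 and 1583 (4.94% together). Each of these counts compares 1 library with 1 library and has no replicate check.

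**Figure D2:**
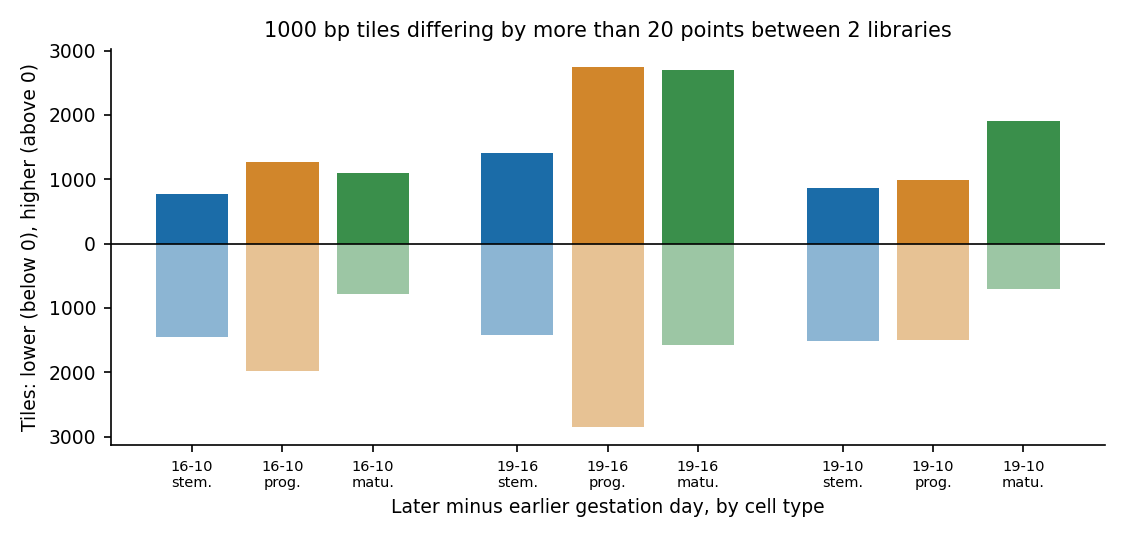
Number of 1000 bp tiles (y axis) that were more than 20 points higher (above 0, full colour) or lower (below 0, pale) on the later day, for each pair of days and cell type (x axis, days as later minus earlier; stem, prog. and matu. are the 3 cell types). For day 19 minus day 10 the stem and progenitor bars are longer below 0 (1511 and 1500) and the mature bar is longer above 0 (1907).

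The 4 tiles called between day 16 and day 19 rested on few CpGs. At chr12:37342001-37343000 (4 CpGs) day 10 libraries were at 82.3, 87.8 and 83.3% in stem, progenitor and mature cells, day 16 libraries at 59.8, 60.4 and 60.0% and day 19 libraries at 94.6, 93.9 and 93.9%. Day 16 was the low point, and the 3 libraries of each later day lay within 1 point of each other. The rise from day 16 to day 19 was 34.1 points (SD 0.702, n = 3; quasi-binomial adjusted p = 0.0247). Of the 4 CpGs, 1 differed by more than 10 points between these days, with a mean of 69.8% at day 10, 1.58% at day 16 and 97.2% at day 19. Bisulfite reads alone do not separate an unmethylated CpG from a C-to-T base change, and which of these the low day 16 values hold, here and at the X tile described next, was not tested. The retired libraries were at 59.9 to 60.5%, like day 16, and virgin libraries at 75.4 to 88.8%. With each CpG weighted equally the difference was 24.4 points and missed the test (limma adjusted p = 0.102). Read depth here was 25.1 to 47.6 times that of the median tile in the means of the 3 days.

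The tile chrX:102810001-102811000 (17 CpGs) had the same order of days. Day 10 libraries were at 75.8, 80.1 and 78.7%, day 16 libraries at 51.7, 52.5 and 56.8% and day 19 libraries at 84.4, 84.1 and 85.2%. The day 16 libraries did not overlap with either other day, and the rise to day 19 was 30.9 points (SD 2.29, n = 3; quasi-binomial adjusted p = 0.0205). Of its CpGs, 2 differed by more than 10 points between these days. The deeply read one (804 reads or more) had means of 79.0% at day 10, 0.733% at day 16 and 97.0% at day 19, and the other (12 to 40 reads) had 77.8, 73.4 and 90.6%. The retired libraries were at 50.3 to 54.5%, like day 16, and virgin libraries at 69.4 to 80.9%. Reads on the tile ran from 2771 to 34738 per pregnancy library. With CpGs above the 99th percentile of coverage removed the difference was 0.512 points (adjusted p = 0.804), and with each CpG weighted equally it was 5.74 points. At both of these tiles the day 16 progenitor library, with 6 columns, lay within 5 points of the 2 day 16 libraries with 4 columns. This is 1 library at called tiles. The retired libraries, near day 16 at both tiles, and the day 19 libraries, the highest at both, also have 6 columns. The part of file layout was not tested.

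The tile chr1:138592001-138593000 (5 CpGs) had the larger of the 2 called falls. Day 10 libraries were at 63.4, 42.1 and 59.0%, day 16 libraries at 78.6, 67.3 and 81.8% and day 19 libraries at 15.7, 10.6 and 12.8%. The 3 day 19 libraries lay below all others, and day 19 was lower than day 16 by -62.9 points (SD 6.13, n = 3; quasi-binomial adjusted p = 0.0191). The level of most single CpGs differed far less. The CpG with the most reads at days 10 and 16 had means of 92.3, 89.5 and 95.9% on days 10, 16 and 19, another had 5.79, 20.3 and 2.42%, and the other 3 were at 13.7% or below. With each CpG weighted equally the difference was -3.66 points (limma adjusted p = 0.527). The methylated CpG held 57.1% of the tile's reads at day 10, 82.1% at day 16 and 11.3% at day 19, and the tile's depth relative to the median tile was 3.15 times at day 16 and 1.57 times at day 19.

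The remaining called tile, chr12:112776001-112777000 (30 CpGs), holds the start site of Eif5, a translation initiation factor. Day 10 libraries were at 12.3, 5.43 and 11.9%, day 16 libraries at 21.9, 9.66 and 21.3% and day 19 libraries at 0.401, 0.609 and 0.466%. Every day 19 library was below 1%, all others were above 5%, and the fall from day 16 was -17.1 points (SD 7.00, n = 3; quasi-binomial adjusted p = 0.0191). Depth of the whole tile relative to the median tile was 5.81, 5.77 and 5.51 times on the 3 days. With each CpG weighted equally the difference between day 19 and day 16 was -4.90 points. Of the 30 CpGs, 2 neighbours, 10 bp apart, differed by more than 10 points between days 16 and 19: 1 had means of 88.7% at day 10 and 26.1% at day 19 and the other 79.7 and 9.26%. These 2 CpGs held 5.85 and 5.71% of the tile's reads at day 10, 9.83 and 9.67% at day 16 and 0.940 and 1.19% at day 19. Both had as few as 5 or 6 reads in a library, and at a minimum of 10 reads the tile's difference was -0.397 points (adjusted p = 0.636). The 4 measured CpGs of its promoter window were at 1.08% or less in every library, with their reads summed. Under other settings these 4 tiles passed the test in 4 of 15 (chromosome 1), 5 of 14 and 3 of 15 (chromosome 12, in the order above) and 5 of 15 (X), and leaving out any 1 of the 9 libraries left 0 to 2 calls.

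**Figure D3:**
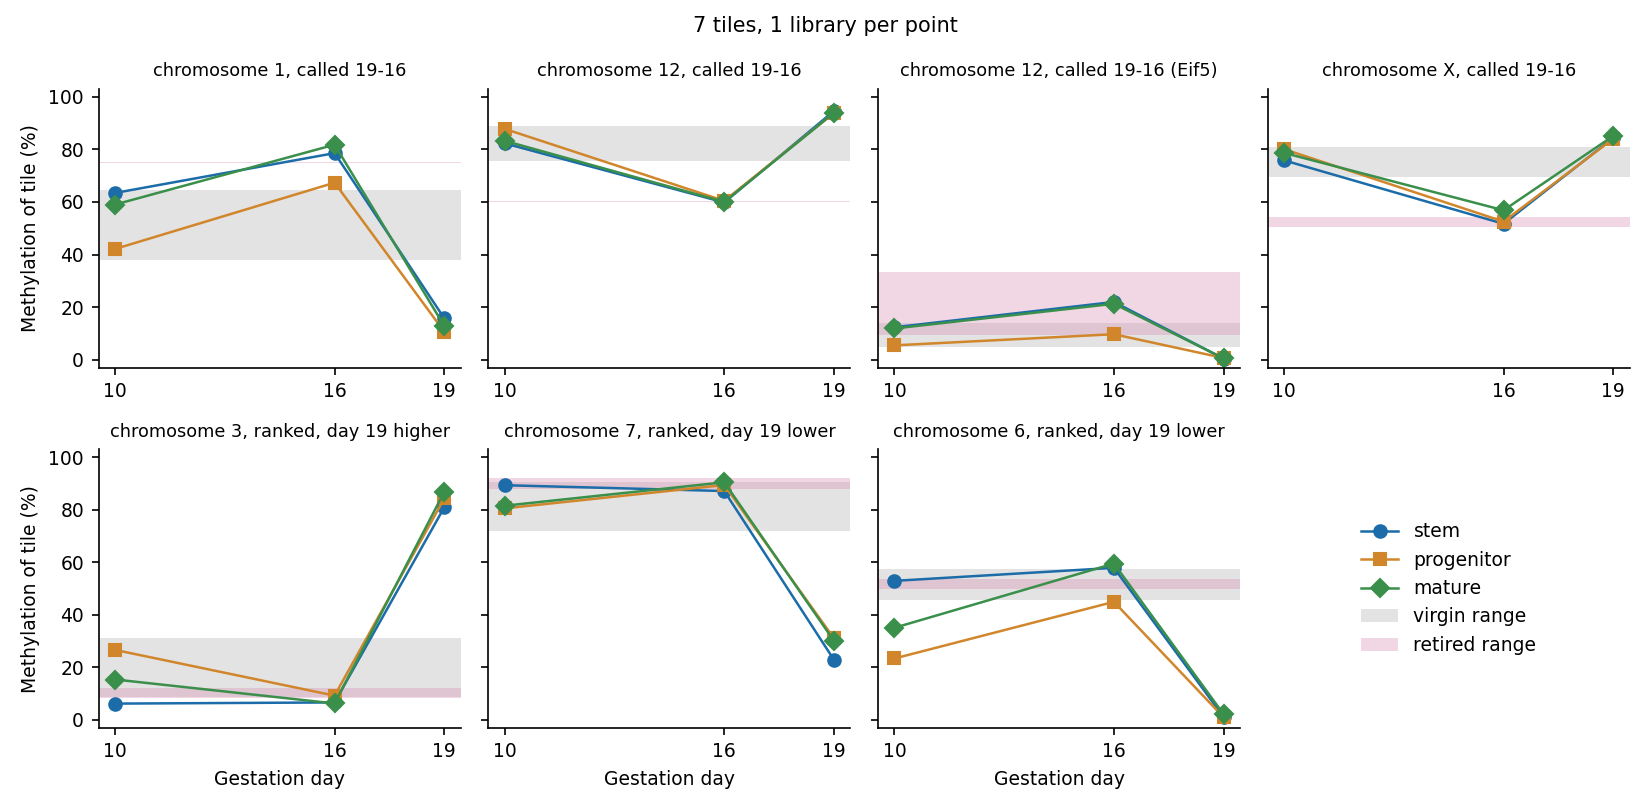
Methylation of 7 tiles in percent (y axis) against gestation day (x axis), 1 point per library, with the range of the 6 virgin libraries (grey) and the 3 retired libraries (pink). The top row holds the 4 tiles called between day 16 and day 19, and the bottom row 1 tile ranked as higher and 2 ranked as lower at day 19 than day 10; the tile on chromosome 6 ends between 1.00 and 2.14%.

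With no calls between day 19 and day 10, tiles are described by rank: those with 20 or more reads in each library and no overlap between days, ordered by the smallest of the 3 paired differences. The tile ranked first among the higher ones was chr3:107280001-107281000 (3 CpGs). Its levels were 6.22, 26.7 and 15.4% at day 10, 6.67, 9.25 and 6.27% at day 16 and 81.0, 84.3 and 86.9% at day 19, so that only day 19 stood apart. The difference was 68.0 points (SD 9.07, n = 3; unadjusted p = 7.46e-05, quasi-binomial adjusted p = 0.511), and 42.3 points with each CpG weighted equally. Its relative depth was 3.01 times the median tile at day 10, 6.04 times at day 16 and 0.472 times at day 19. The part of depth in this difference was not tested.

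Ranked first among the lower ones was chr7:86639001-86640000 (3 CpGs), 4912 bp from the placed start of Mir9-3hg, the host gene of a microRNA. Its levels were 89.3, 80.5 and 81.5% at day 10, 87.1, 89.4 and 90.5% at day 16 and 22.9, 31.0 and 30.1% at day 19. The read-summed difference was -55.8 points (SD 9.28, n = 3; quasi-binomial adjusted p = 0.511), but -10.6 points with each CpG weighted equally, and relative depth went from 4.99 to 0.826 times the median tile. The tile chr6:112995001-112996000 (3 CpGs), 165 bp from the placed start of the predicted gene Gm43868, had a difference that depended less on the weighting. Its levels were 52.9, 23.4 and 35.1% at day 10, 57.9, 45.0 and 59.5% at day 16 and 1.12, 1.00 and 2.14% at day 19. Day 19 was also below the virgin and retired libraries, whose lowest was at 45.7%. The difference was -35.7 points (SD 14.9, n = 3; unadjusted p = 2.99e-05, quasi-binomial adjusted p = 0.477) and -28.2 points with CpGs weighted equally, and relative depth was 0.817 at day 10 and 0.700 at day 19.

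Over the 10 ranked tiles in each direction, the read-summed difference was 25.2 to 68.0 points where day 19 was higher and -24.0 to -55.8 points where it was lower. With CpGs weighted equally it was 5.42 to 42.3 points and -1.50 to -34.7 points, and libraries still did not overlap at 9 and 8 of the 10. Adjusted p-values of these tiles were 0.0896 to 0.519. Relative depth was lower at day 19 than at day 10 at 8 of the 10 higher and 7 of the 10 lower tiles. Over all tiles the median ratio of day 19 to day 10 depth was 0.999, with 7.23% outside 1.5 times. Among 281 tiles with a mean rise above 20 points 19.6% were outside, and among 190 with a mean drop beyond 20 points 18.9%. Among tiles whose depth differed by at most 1.5 times between days, the 10 ranked first as higher differed by 23.9 to 32.0 points and the 10 ranked first as lower by -21.3 to -35.7 points, with adjusted p-values of 0.477 to 0.519. Among these, chr16:92606001-92607000 (5 CpGs), was at 58.8, 70.2 and 77.1% at day 10 and 33.3, 30.1 and 46.2% at day 19. It was -32.1 points lower at day 19 (SD 7.42, n = 3) and -34.7 points with CpGs weighted equally.

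**Figure D4:**
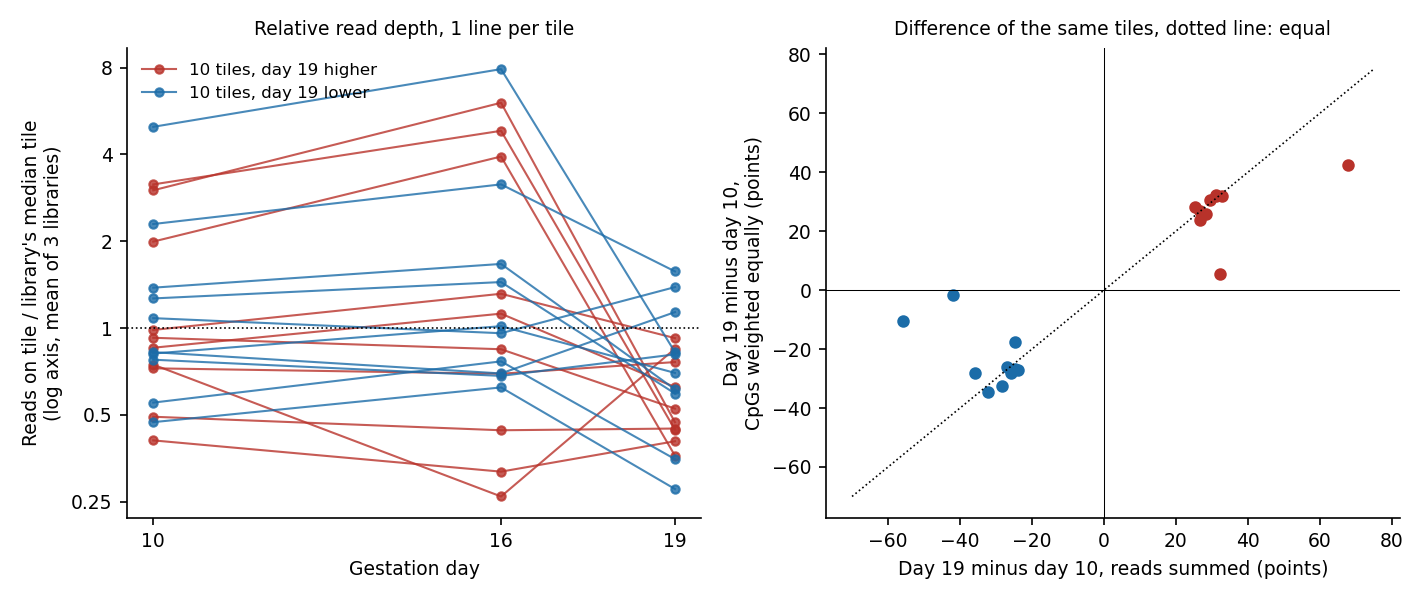
Left, reads on each of the 20 ranked tiles relative to the median tile of the library (log y axis, mean of 3 libraries) against gestation day. Right, day 19 minus day 10 in percentage points with reads summed (x axis) against the same with CpGs weighted equally (y axis), 1 point per tile; most tiles lie near the dotted line of equality, and 4 lie farther from it: 2 higher at day 19 (68.0 and 32.3 points summed against 42.3 and 5.42) and 2 lower, with -55.8 and -41.8 points with reads summed against -10.6 and -1.50 points with CpGs weighted equally.

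Promoter windows of 300 bp (8557 windows) had a mean level of 3.54 to 3.71% at day 10 and 3.37 to 3.61% at day 19. None passed the quasi-binomial test between day 19 and day 10 (0%; 364 windows, 4.25%, at an unadjusted p under 0.05). Day 19 lay wholly below day 10 at 323 windows (3.77%) and wholly above at 165 (1.93%). The median difference over all windows was 0 points. Of the windows, 7851 had a mean under 5% in the 9 libraries.

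Of 12 genes for milk proteins and their secretion, only Mfge8, which encodes a milk fat globule protein, had a measured window. It was at 0.166, 0.322 and 0.107% at day 10 and at 0% in all 3 day 19 libraries, and it did not pass the test (adjusted p = 0.806). Of 11 prolactin signalling and alveolar genes, 6 had a window (Jak2 and Stat5a and Stat5b, which carry the prolactin signal, the luminal factor Gata3, the receptor kinase Erbb4, and Id2). None of the 6 passed the test, none exceeded 1.87% in any library, and their median difference was 0.0984 points. The prolactin pathway promoters that could be measured were thus nearly free of methylation on all 3 days. Of 8 hormone receptor and luminal genes, 2 had a window, Wnt4, a progesterone-induced signal, and Prom1, a surface marker of hormone-sensing luminal cells. Prom1 was at 10.4, 3.35 and 3.17% at day 10, 8.76, 10.4 and 6.15% at day 16 and 5.47, 6.93 and 2.97% at day 19, and the days overlapped. Of 8 cell cycle genes, 4 had a window (the inhibitors Cdkn1a, Cdkn1b and Cdkn2a, and the cyclin gene Ccne1), all with a mean of 0.998% or less, and none passed the test. No listed luminal or basal marker had a placed window with 3 or more shared CpGs, so the labelled cell types could not be checked by them. A window that could not be placed also counts as not measured. None of the immune, endothelial and fibroblast markers had one either. Of the fat cell markers, Pparg had 2 windows, with means of 0.124 and 2.51%.

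Imprinted promoters held both middle and low levels, and none passed the test. Of 20 imprinted genes, 8 had 9 windows, with a median difference of -0.894 points. The Igf2r window shown above was at 39.1, 35.1 and 41.8% at day 10, 49.2, 29.2 and 36.0% at day 16 and 41.0, 28.0 and 31.1% at day 19 in stem, progenitor and mature cells. The days overlapped, and 6 of the 8 capitalised CpGs had a lower mean at day 19 with no CpG free of overlap. Mcts2, a retrotransposed imprinted gene, was at 41.1, 49.2 and 47.2% at day 10 and 37.3, 55.7 and 55.4% at day 19. Zrsr1, an imprinted splicing factor gene, was at 36.7, 43.6 and 45.6% at day 10 and 43.4, 38.5 and 41.4% at day 19. Plagl1, an imprinted zinc finger gene, was at 37.9, 17.2 and 28.6% at day 10 and 19.2, 19.5 and 21.1% at day 19. In each of these the days overlapped.

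X-linked windows at middle level in the virgin and retired libraries numbered 156, from 147 genes. Their mean was 29.9, 31.5 and 29.8% at day 10, 28.4, 30.7 and 31.1% at day 16 and 28.5, 29.3 and 30.03% at day 19. Day 19 lay wholly below day 10 at 11 of them (7.05%) and above at 0, against 3.77 and 1.93% of all windows; the 205 autosomal windows at middle level gave 16 (7.80%) and 3 (1.46%). Hprt, the gene of a purine salvage enzyme on the X, was at 22.2, 27.2 and 24.8% at day 10 and 20.5, 23.8 and 26.3% at day 19, and the days overlapped. Suv39h1 and Slc25a53 were among the 10 lower windows that ranked first. Suv39h1, a histone methyltransferase of heterochromatin, was at 38.1, 30.2 and 38.5% at day 10, 45.3, 37.7 and 47.9% at day 16 and 27.5, 17.8 and 29.9% at day 19 (4 CpGs; adjusted p = 0.806). Slc25a53 was at 48.4, 36.1 and 37.8% at day 10, 36.3, 37.8 and 33.5% at day 16 and 25.8, 23.0 and 31.8% at day 19 (9 CpGs; adjusted p = 0.806). All 7 of its capitalised CpGs had a lower mean at day 19, though at each of them the range of libraries overlapped with day 10.

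Among autosomal promoters the ranked windows included Map2k7 and Hnrnpa3, lower at day 19, and Gm31822 and Ube2d3, higher. Map2k7 was at 27.1, 9.57 and 9.32% at day 10, 17.4, 7.84 and 37.2% at day 16 and 0, 0.901 and 1.49% at day 19. The difference lay in 3 of its 5 capitalised CpGs, 203, 185 and 167 bp before the start, and the other 2 were at 0% in every library, with 5 to 10 reads in the shallowest library at each CpG. Virgin libraries were at 4.17 to 17.4% there and retired libraries at 35.7% or more. Hnrnpa3, an RNA-binding protein gene, was at 14.3, 12.7 and 10.2% at day 10, 29.5, 11.0 and 19.8% at day 16 and 2.14, 3.39 and 2.61% at day 19. Gm31822 was at 1.31, 10.6 and 1.65% at day 10, 8.06, 15.7 and 1.93% at day 16 and 12.4, 37.4 and 17.4% at day 19. All 4 of its capitalised CpGs had a higher mean at day 19, and at the middle 2 the libraries of day 10 and day 19 did not overlap. Ube2d3, a ubiquitin-conjugating enzyme gene, was at 1.51, 4.18 and 5.21% at day 10 and 16.4, 14.1 and 8.86% at day 19 in 1 of its windows. Each of these 4 windows had an adjusted p of 0.806.

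**Figure D5:**
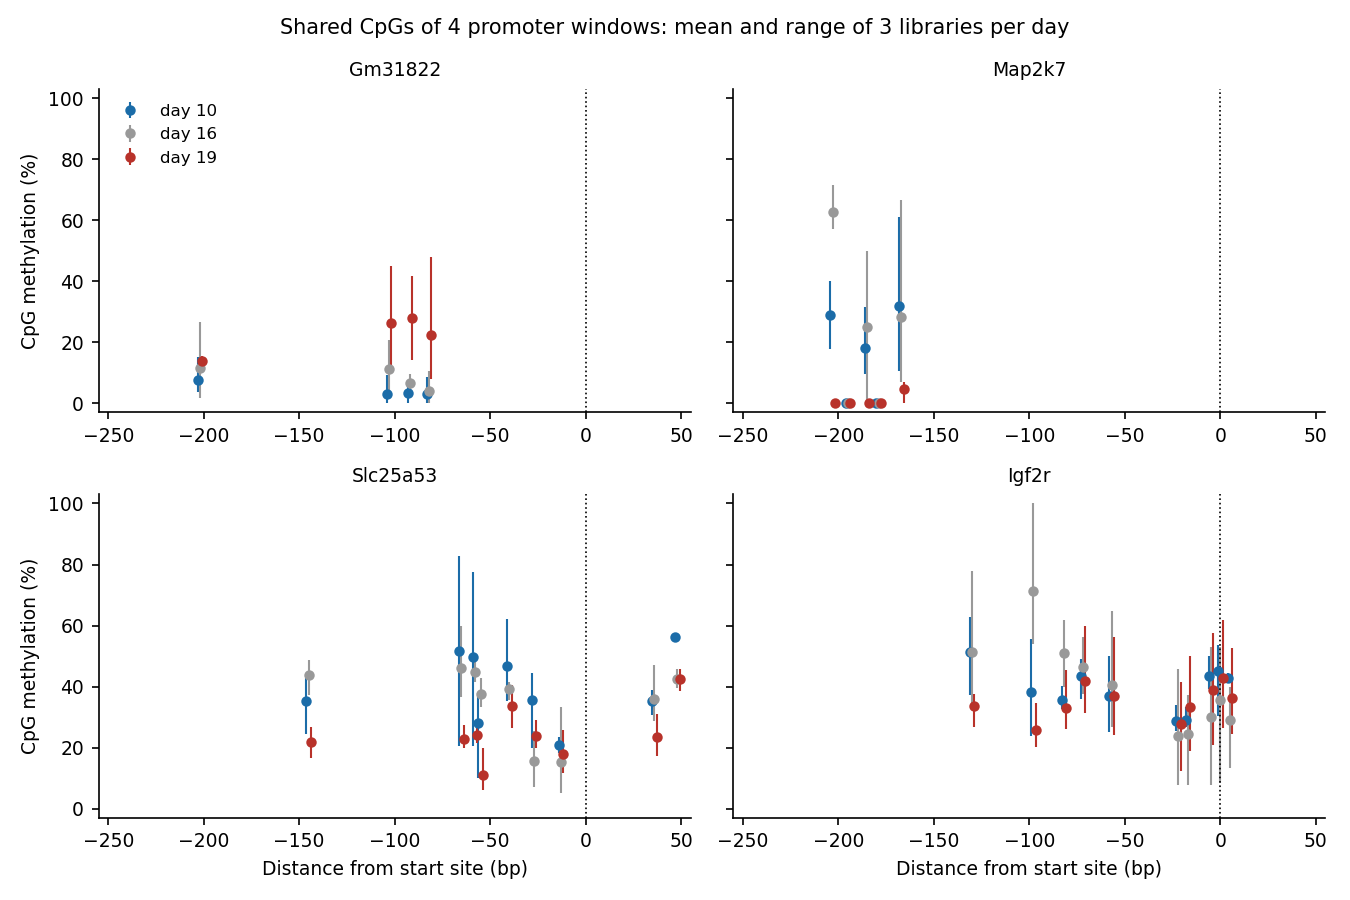
Methylation of each shared CpG in percent (y axis) against its distance from the start site in bp (x axis, dotted line at 0) for the 4 promoter windows whose sequences are shown; points are means of 3 libraries per day and bars their range. Day 19 lies above day 10 at all 4 CpGs of Gm31822, below it at 3 of 5 CpGs of Map2k7 and below it at all 7 CpGs of Slc25a53 before the start, while the days of Igf2r overlap.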

How the data were processed

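The authors deposited 1 headerless table per library, with 1 line per CpG and the text of methylated over total read counts at that CpG, on build mm9 per the submitters' processing notes. In the 6-column files the deposited score equals 1000 times the methylated share within 0.5 and was used only for that check. No source used here names the aligner, the caller or the filters. The members, gene lists and tests were chosen with earlier results of these data known.

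CpGs with 5 or more reads in all 9 libraries were summed into 1000 bp tiles. Tiles were fitted by quasi-binomial regression on day and cell type, with a dispersion moderated across tiles and held at 1 or above, and an F test with Benjamini-Hochberg adjustment; the code was checked on simulated counts. The tables at hand hold no mm9 annotation, so no gene was to be assigned. After the files were seen, RefSeq promoter windows (GRCm38.p6, 250 bases before to 50 after the start) were placed without converting coordinates. A window was placed where 6 or more listed CpGs matched its CpG spacing at 1 position, by 2 CpGs more than at any other, and the distance to a neighbouring placed window was that of the table; between placed windows, 3 CpGs sufficed. Of 32851 windows 10780 were placed, of 9523 genes; before the check on neighbours, 8480 of 18541 windows were placed by their own spacing and 487 by the same spacing read backwards, a measure of false placement. Named tiles were the 10 per direction ranked by their smallest paired difference; promoters were ranked alike, and the Eif5 and Hprt windows, the chosen sequences and the examples among ranked promoters were picked after their values were seen. Depth limits precision (5 reads at the least per CpG), and reads may be PCR copies. Cell type pairs the libraries by label. Tools were Python 3.11.15, numpy 2.4.6, scipy 1.17.1, pandas 2.3.3, matplotlib 3.10.9, R 4.3.3 and limma 3.58.1. The alternatives are in the closing section; the equal weighting of CpGs, the tiles of steady depth, the promoter windows and leaving out a cell type at the tiles were chosen after seeing the data.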

Additional observations from a re-analysis of the deposited data

Results flagged for a closer look

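Day 19 minus day 10 had opposite signs in different cell types for 2 measures. For the mean over all shared CpGs, stem and progenitor cells were lower and mature cells higher at day 19, and the stem difference minus the mature difference was -1.39 points. This opposite sign was absent with reads pooled over the same CpGs, where the mature difference was -3.36 points, and over any CpG with 5 reads, where it was -1.30 points. For the middle class of 20 to 80%, the same contrast was -4.89 points, from -1.87 points in stem and 3.02 points in mature cells, and there the mature pair was also higher with reads pooled (3.17 points) and over any CpG with 5 reads (2.56 points). With 1 library per cell type and day, the difference between cell types was not tested for these means.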

How the results depend on the processing

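The count of tiles called between day 19 and day 10 was 0 under every alternative run, including limma, and so was the count of tiles whose linear change over days differed between cell types. Day 16 against day 10 gave 0 calls except without a cell type term, which gave 3. For day 19 against day 16, 4 calls became 38 without the cell type term (the fit with no replicate block), 2 with all 18 libraries in the fit, 0 with 500 bp tiles, 21 with any CpG with 5 reads in a library, 1 without the most deeply read CpGs, 59 with limma on log2 ratios, 1 among tiles of steady depth and 0 among promoter windows. Leaving out 1 library gave 0 to 2 calls, and leaving out a cell type gave 0; fewer libraries were then tested. With or without the block, same-day libraries of different cell types count as replicates, and the block pairs libraries by cell type. The cause of these changes was not tested.

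For the means, day 16 minus day 10 turned to 0.169 points without the stem libraries, 1.43 points over any CpG with 5 reads and 2.08 points with reads pooled. Day 19 minus day 16 became -4.01 points (exact p = 0.00926) over any CpG with 5 reads and -5.94 points (exact p = 0.0185) with reads pooled. Day 19 minus day 10 turned sign in the low class to -0.0654 points over any CpG and -0.135 points with reads pooled, in the middle class to -1.46 points without the mature libraries, -0.0416 points at 10 reads and -0.598 points over any CpG, in tiles of 3 to 9 CpGs to 0.0574 points without stem, 0.0130 points without progenitor libraries and 0.284 points over any CpG, and in tiles of 10 to 19 CpGs to 0.469 points over any CpG. Tiles past 20 points within a cell type numbered 2368 (2.73%) in stem, 2487 (2.87%) in progenitor and 2605 (3.00%) in mature cells. Past 30 points they numbered 433 (0.499%), 540 (0.622%) and 902 (1.04%). With thinned reads 3711 tiles (4.28%) were past 20 points in stem cells. Limma on tile means with CpGs weighted equally, added after the data were seen, gave 4 calls for day 19 against day 16, all higher at day 19, and 0 for day 19 against day 10. The high class had an unadjusted exact p of 0.0556 to 0.278 without 1 cell type and kept the sign of its mean difference. Under the other choices of CpGs and weighting the sign was also kept, with an unadjusted exact p of 0.0463 to 0.120. Its mature pair was higher at day 19 by 0.147 points over any CpG with 5 reads. Without the X, Y and mitochondrial chromosomes it was higher by 9.08e-05 points. No ranked tile passed the test under an alternative; their sign was fixed by how they were chosen. The shallowest library, the day 16 progenitor, had 85 reads in its median tile.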

Other observations

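Single CpGs that went from nearly unmethylated to nearly fully methylated were rare and involved day 16. Between day 10 and day 19, 0 of 825576 shared CpGs were below 10% in all 3 libraries of one day and above 90% in all 3 of the other. Between day 16 and day 19, 13 CpGs were below 10% at day 16 and above 90% at day 19 (a C-to-T base change at these CpGs was not tested for), with a mean of 69.8% at day 10, and 11 of them had 20 or more reads in every library. The opposite pattern held at 1 CpG.

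After subtracting each tile's mean over the 9 libraries, the day 19 mature library was most like the day 10 progenitor library (Pearson's r = 0.476 across 86781 tiles, given as a description; tiles share library, depth and base composition). The stem libraries were most like each other, with r = 0.371 between day 10 and day 16, 0.241 between day 10 and day 19 and 0.258 between day 16 and day 19. Subtracting the mean pulls such correlations below 0. Over all tiles same-day pairs had a mean r of -0.0943 and same-type pairs of different days 0.0771, and in the 1% of tiles read most deeply the order was the opposite, at 0.369 and -0.224.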
